A study of Mus musculus with 35 samples.

Results

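Endothelial cells of the embryonic mouse brain were described one by one from a single-cell dataset of sorted cells taken at E14.5, in mid-gestation. The members were the wells of plates 1 to 3 that had been sorted as PECAM1 high, CD102 high, PDGFRb low, CD41 low and CD45 low and that held more than 1500 transcripts, spike-in RNA left out. This rule gave 225 cells of the 686 wild-type single cells over the same minimum. The reference cells were 210 of the mural gate, 123 of the neural gate and 128 of the microglia gate, sorted from the same dissociated brains. All were wild-type cells of E14.5 brain, and the sources used here give no further genotype, strain or treatment for them. The study sorted the cells from several independent brains, but the labels do not say which brain a well came from, so the p-values below measure the spread between plates, which may be technical. Libraries of Mof knockout cells in the same series were not analysed here. Bulk RNA libraries of the same 4 populations, 3 brains each, were used as a second readout.

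Vessels grow into the embryonic brain by sprouting. A tip cell leads each sprout in response to VEGF, stalk cells behind it divide, and Notch signalling between neighbours keeps their number in balance. As vessels mature they take on arterial or venous identity. Wnt signalling through Frizzled receptors, induced by the neural tissue, turns on the blood-brain barrier programme of tight junctions and nutrient transporters and turns off Plvap, the protein that forms the diaphragms of fenestrae and caveolae.

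The start sites of a few genes whose transcripts mark these cells are shown because transcription factors of the ETS family, which bind a GGAA core, are known to drive endothelial genes. Each sequence is a RefSeq promoter on GRCm38.p6, from 250 bases before to 50 bases after the start of the gene, read 5′ to 3′ on the strand of the gene. Capitals mark CAGGAA or CCGGAA, searched on both strands (TTCCTG and TTCCGG are the reverse forms). The windows are chr16:18776597-18776896 on the plus strand for Cldn5, chr5:75978406-75978705 on the minus strand for Kdr, chr9:37401722-37402021 on the plus strand for Robo4, and chrX:48034804-48035103 on the minus strand for Apln.
Cldn5: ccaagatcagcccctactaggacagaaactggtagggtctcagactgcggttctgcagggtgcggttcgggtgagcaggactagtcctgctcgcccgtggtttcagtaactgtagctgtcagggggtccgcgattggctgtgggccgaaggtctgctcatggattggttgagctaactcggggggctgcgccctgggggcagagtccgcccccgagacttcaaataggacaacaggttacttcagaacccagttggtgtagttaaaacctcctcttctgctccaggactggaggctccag
Kdr: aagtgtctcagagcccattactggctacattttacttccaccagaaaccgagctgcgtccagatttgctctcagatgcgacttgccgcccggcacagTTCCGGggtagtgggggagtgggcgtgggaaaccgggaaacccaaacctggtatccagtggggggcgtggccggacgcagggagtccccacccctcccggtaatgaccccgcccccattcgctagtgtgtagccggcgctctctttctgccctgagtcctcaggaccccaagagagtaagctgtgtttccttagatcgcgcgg
Robo4: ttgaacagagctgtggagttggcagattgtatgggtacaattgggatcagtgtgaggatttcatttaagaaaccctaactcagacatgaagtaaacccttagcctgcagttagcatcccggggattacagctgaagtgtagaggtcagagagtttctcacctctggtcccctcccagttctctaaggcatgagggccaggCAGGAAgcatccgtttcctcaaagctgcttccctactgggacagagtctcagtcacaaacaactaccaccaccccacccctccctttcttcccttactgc
Apln: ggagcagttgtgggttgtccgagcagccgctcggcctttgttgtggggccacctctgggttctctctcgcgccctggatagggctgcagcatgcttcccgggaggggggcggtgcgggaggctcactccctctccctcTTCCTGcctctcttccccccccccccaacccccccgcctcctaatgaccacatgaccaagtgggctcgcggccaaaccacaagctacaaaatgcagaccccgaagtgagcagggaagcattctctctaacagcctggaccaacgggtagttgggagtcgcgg
The match in Kdr began 153 bases before the start, that in Robo4 50 bases before it and that in Apln 112 bases before it, while the Cldn5 window held neither word. Of the 21 endothelial identity genes called below, 11 had a promoter in the table, and 9 of these held at least 1 of the words, 8 of them CAGGAA and 1 of them, Kdr, CCGGAA. Over all 32851 promoters of the same length the share with either word was 41.4%, with CAGGAA 30.6% and with CCGGAA 14.9%. A match is a run of letters and was not tested as a binding site.

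The wells of the endothelial gate were spread unevenly over the plates. Of 368 such wells 61.1% passed the minimum, with 120 of 128 on plate 1, 92 of 112 on plate 2 and 13 of 128 on plate 3. The other gates also lost most of their wells on plate 3 except for the microglia gate, in which 6 of 6 were kept. The median depth was 7582 transcripts per endothelial-gate cell on plate 1, 5471 on plate 2 and 4447 on plate 3, and the whole range was 1596 to 22002. Mural, neural and microglia cells had medians of 6885, 7717 and 10761 transcripts, so the microglia were the deepest. The cells came from 6 libraries, numbered 3, 4, 7, 8, 9 and 10, of which libraries 4, 8 and 9 held endothelial wells only, libraries 3 and 7 also held neural wells and library 10 also held mural wells. Gate and library can therefore be told apart only in libraries 3, 7 and 10. All libraries shared the same 192 well barcodes, of which 96 were in use in each.

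Most of these cells had the transcripts that their gate calls for. The label was checked with 6 defining markers of endothelium, Pecam1, Cdh5, Cldn5, Kdr, Flt1 and Cd93, and 207 of the 225 cells had a transcript of at least 3 of them, 144 of them all 6. None of the 210 mural and none of the 123 neural cells reached 3 of the 6, and 2 of the 128 microglia did. The other 18 endothelial-gate cells had 0, 1 or 2 of the markers, 8 on plate 1, 4 on plate 2 and 6 of the 13 cells of plate 3. Among these 18, 4 carried at least 6 of 10 mural markers, 2 carried at least 6 of 10 microglial markers, 3 carried at least 4 of 10 neural markers and 5 gave more than 60% of their transcripts to a set of repeat-like gene models such as Gm10800 and Gm26870. A further 5 met none of these descriptions, and 1 cell met the microglial and the neural one. Among the 207 cells with at least 3 markers, 3 also carried at least 6 mural markers, 1 at least 6 microglial and 3 at least 4 neural markers. The repeat-like share was 4.95%, 9.49% and 15.9% at the median of plates 1, 2 and 3, and 30 of the 225 cells exceeded 20%. The 18 cells stay among the 225 in the comparisons between gates, and the comparisons within the gate use the 207.

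**Figure D1:**
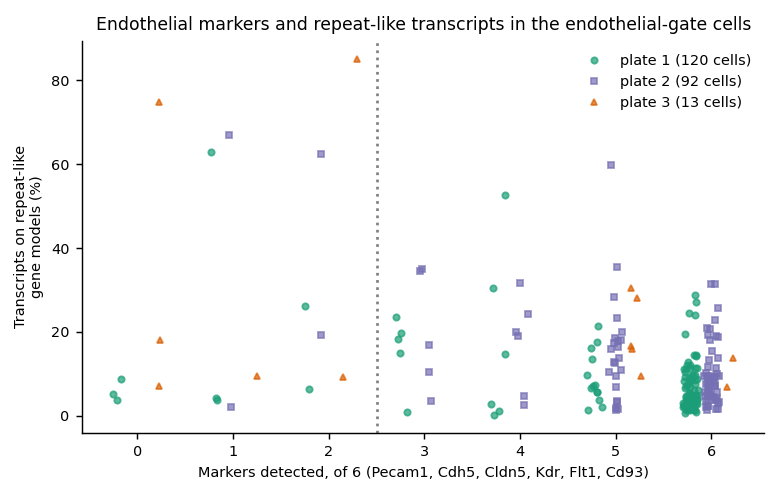
Each point is 1 of the 225 endothelial-gate cells, with the number of 6 endothelial markers that had a transcript on the horizontal axis and the percent of its transcripts on repeat-like gene models on the vertical axis; colours and shapes give the plate, points are jittered sideways and the dotted line separates the 18 cells under 3 markers from the 207 others. The cells over 60% repeat-like all lie left of the line, and 144 cells have all 6 markers.

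Cldn5, the claudin that closes the tight junctions of brain endothelium, lay at chr16:18776847-18778262 (GRCm38) and had a transcript in 195 of 225 cells, 86.7% (95% Clopper-Pearson interval 81.5% to 90.8%). In the sums over the cells of a plate its level was 1618, 1317 and 413 CPM (counts of transcripts scaled to a common total of 1e+06) on plates 1, 2 and 3, against at most 10.95 in any of the 9 sums of the other gates. The 3 endothelial sums thus lay far above the others, with the lowest on plate 3, where 46.2% of the cells had a Cldn5 transcript. Its log2 fold change against the mean of the other gates was 8.58 (SE 0.37, adjusted p = 3.55e-27, edgeR quasi-likelihood test over 12 sums with Benjamini-Hochberg adjustment). With each cell reduced at random to 1500 transcripts its share was 72.0%. In the other gates 1.43% of mural, 3.25% of neural and 3.12% of microglial cells had a Cldn5 transcript. Barcodes to which no well was assigned had a Cldn5 transcript in 2.08% of 288 cases in the libraries of endothelial wells alone and in 3.12% of 480 cases in libraries without endothelial wells, at median depths of 91.5 and 98.0 transcripts.

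Cdh5, which encodes VE-cadherin of the adherens junctions (chr8:104101625-104144511), had a transcript in 73.8% of the cells (67.5% to 79.4%). Its sums held 339, 305 and 171 CPM on plates 1, 2 and 3. It was at 0 in all mural and neural sums and at 9.32 in 1 microglial sum. Pooled over plates it was at least 164-fold higher than in mural cells and at least 102-fold higher than in neural cells, taking 3 counts over the whole gate as the floor. Kdr, the main VEGF receptor (chr5:75932827-75978458), was the most widely detected of the named markers, in 94.7% of the cells (90.9% to 97.2%) and in 82.7% after thinning. Its level was 1522, 1417 and 727 CPM on the 3 plates, against 20.1 or less in the others. Cd93, a transmembrane glycoprotein of endothelium (chr2:148436640-148443563), followed with 89.8% of the cells (85.1% to 93.4%) and levels of 1468, 1384 and 470 CPM, against 21.9 or less. The log2 fold changes were 8.72 for Cdh5, 6.84 for Kdr and 6.99 for Cd93 (edgeR adjusted p = 6.78e-25, 6.54e-27 and 7.59e-27). Each of these markers was lowest on plate 3.

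Plvap and Apln were found in a minority of the cells. Plvap (chr8:71497765-71511752) had a transcript in 96 cells, 42.7% (36.1% to 49.4%), and its level was 210 and 220 CPM on plates 1 and 2 but 28.5 on plate 3, where 1 mural sum reached 27.5. Apln, which encodes the peptide ligand apelin made by tip cells (chrX:48025146-48034853), had a transcript in 93 cells, 41.3% (34.8% to 48.1%), with levels of 204, 189 and 99.7 CPM. Their log2 fold changes against the other gates were 5.35 (SE 0.34) for Plvap and 6.54 (SE 0.35) for Apln (edgeR adjusted p = 1.57e-20 and 2.39e-23). After thinning to 1500 transcripts the shares fell to 20.9% for Plvap and 20.4% for Apln, about as many cells each. The share of cells with Apln differed between plates, at 50% on plate 1, 33.7% on plate 2 and 15.4% on plate 3, and so did the depth. A cell without a transcript of either gene is a cell in which none was counted at this depth, not a cell shown to lack it.

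**Figure D2:**
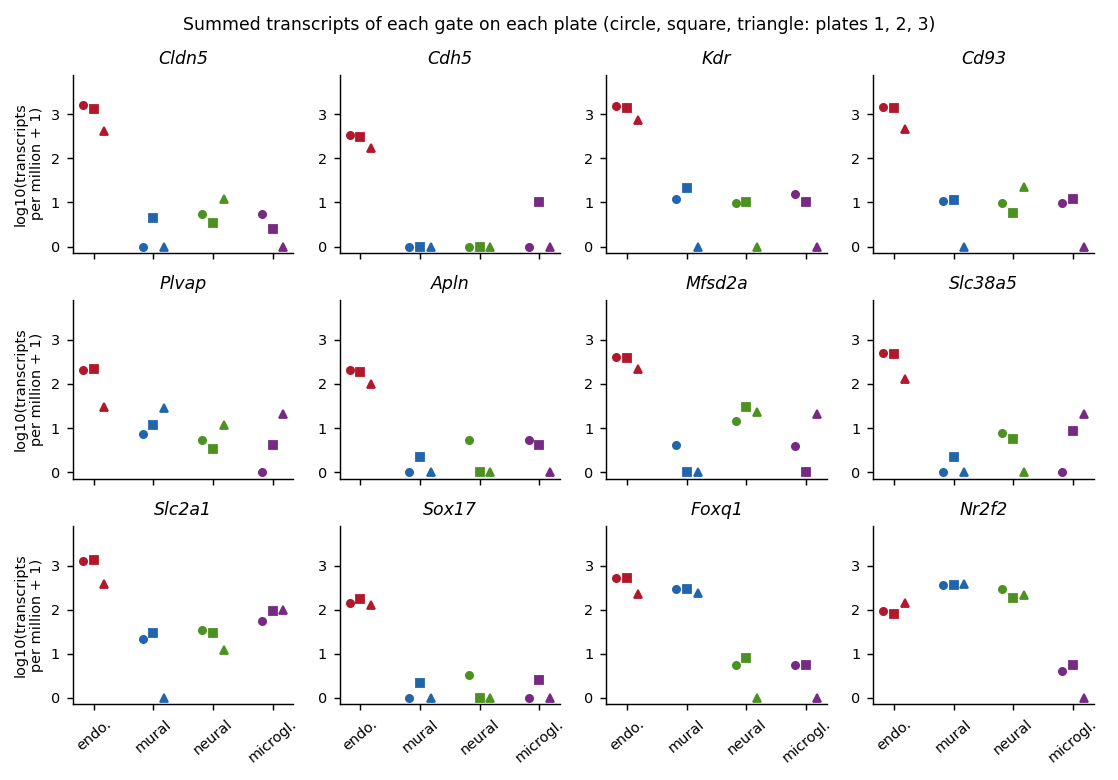
Level of 12 genes in the sum of each gate and plate, as log10(CPM + 1), for the 6 named markers and 6 further genes; each point is 1 of the 12 sums and its shape gives the plate. In the panels of the 6 named markers the 3 endothelial sums lie above the 9 others, by the least for Plvap (28.5 against 27.5 CPM on plate 3), while Foxq1 is near the mural level and Nr2f2 below it.

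Genes that define endothelium in general were higher as a group. Across all genes, 1521 of the 9281 tested were higher in the endothelial gate than in the mean of the other gates (16.4%) and 646 were lower (6.96%), and 321 (3.46%) had all 3 endothelial sums above all 9 others. Of the 23 genes of the identity list 21 were tested and all 21 were called higher, with a median log2 fold change of 6.14 against -0.02 over all genes tested, and 17 of them had no overlap between the sums. Icam2, whose protein CD102 was part of the gate, and the ETS factor Erg did not enter the test, and a gene that passes the filter on low counts through the endothelial gate alone had to be high there. The list holds Pecam1, whose protein was also part of the gate. Robo4, a guidance receptor of endothelium, rose by 8.43 on the log2 scale (SE 0.46) and stood at 1.58 CPM or less in every other sum. Within library 3, where endothelial and neural wells shared 1 library, all 21 were higher in the endothelial cells, and the same held within library 7. Of all 1521 genes called higher this held for 88.9% and 85%. The cells of both libraries were part of the sums that gave these calls, so the direction is not independent of them. Of the other lists every called gene was higher in library 3, and in library 7 all but 2 of 11 arterial, 1 of 6 Notch and 1 of 7 venous genes. In library 10, with 4 endothelial-gate cells of which 2 had at least 3 markers, 17 of the 21 were higher than in its mural cells. Of the called genes of the other lists this held for 11 of 17 transporters, 3 of 7 tight junction, 4 of 16 Wnt, 0 of 5 caveola, 4 of 10 tip, 1 of 6 Notch, 2 of 11 arterial and 4 of 7 venous genes, against 31.3% of all genes called higher. Many had no count in the 4 cells, namely 4, 3, 7, 3, 4, 3, 7 and 3 genes of these lists in turn, and 50% of all genes called higher.

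The tight junction genes that could be tested were higher than in the other gates. Of the 11 listed, 7 were tested and 7 were called, with a median log2 fold change of 3.01. Lsr, the lipolysis-stimulated receptor of tricellular junctions, had a transcript in 60.4% of the cells and rose by 5.63 on the log2 scale. Esam, an adhesion molecule of endothelial junctions, was found in 77.8% of the cells, and 57.1% of mural cells had it as well. Tjp1, the scaffold protein ZO-1, was found in 76.9% of the cells and in 68.6% of mural cells, and its difference from the mural gate did not pass the test (log2 0.66, adjusted p = 0.0693). The F11r transcript, which encodes JAM-A, was in 79.1% of the endothelial-gate cells and in 85.2% of the microglia. Ocln, the occludin gene, was in 20.4% of the cells and was too low to enter the test, as were Marveld2 (7.56%), Cldn12 (5.33%) and Cgn (1.78%).

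The nutrient and efflux transporters of the barrier were higher in the endothelial gate. Of 19 genes 18 were tested and 17 were called higher, with a median log2 fold change of 4.37. Of the 18, 14 had no overlap between the sums. In other lists this held for 3 of 7 tight junction, 7 of 18 Wnt, 2 of 5 caveola and 3 of 12 tip genes tested. For Notch, arterial and venous genes it was 1 of 8, 2 of 12 and 4 of 9, against 3.46% of all genes tested. Slc2a1, the glucose transporter GLUT1, was in 88.4% of the cells at 1249, 1353 and 385 CPM on plates 1, 2 and 3, with a log2 fold change of 4.88. Mfsd2a, the carrier of lysophospholipids that is known to keep transcytosis low, was in 72.9% of the cells and in 0.952% of mural cells, a log2 difference of 6.42 from the other gates. The amino acid carriers Slc38a5 (75.1% of cells), Slc38a3 (72.0%) and Slc7a5 (86.2%) rose by 7.24, 7.60 and 4.56. Slco1c1, a carrier of thyroid hormone, was in 55.6% of the cells and Abcb1a, the efflux pump P-glycoprotein, in 52.4%. Spock2, a matrix proteoglycan listed with these genes for its known place in barrier endothelium, was in 87.6%.

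Some genes of mature barrier vessels were near the floor of the assay. No transcript of Slco1a4, an organic anion carrier of adult brain endothelium, was counted in the 225 cells, which limits the share of cells with a counted transcript to 1.63% at this depth and not the share that express the gene. Slc16a1, the lactate carrier MCT1, was in 4.89% of them and in 27.3% of microglia, and its difference from the other gates did not pass the test (log2 -0.34, adjusted p = 0.771). Abcc4 was in 16.4% of the cells and rose by 4.18. Slc22a8, an organic anion carrier, was shared with the mural gate, at 43.6% against 24.8% of cells. It was higher than there by 1.49 (edgeR adjusted p = 7.84e-05), and the call was kept in 8 of 10 other settings.

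Regulators of the barrier programme were high as well. Of 19 genes of Wnt signalling and barrier transcription factors 18 were tested and 16 were called higher than in the other gates, with a median log2 fold change of 4.50. Lef1, which carries the nuclear response to Wnt, was in 55.1% (log2 5.48), Apcdd1, a Wnt target and antagonist, in 50.2% (5.07) and Fzd4, the Frizzled receptor of the Norrin pathway, in 40.4% (4.46). Sox7, Sox17 and Sox18, which act in vessel growth, were each in under 1% of mural and neural cells and in 43.1%, 55.1% and 56.9% of the endothelial-gate cells. Lrp6, the coreceptor, did not differ by the test (log2 -0.02, adjusted p = 0.976), nor did Reck (0.42, adjusted p = 0.640), the partner of Adgra2 in Wnt7 sensing.

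Several of these regulators were shared with the mural gate. Of the 9281 genes 1068 were higher than in the mural gate (11.5%) and 851 lower (9.17%). Of 6 repeat-like gene models tested 2 were among the higher, Gm26870 and Gm26917, with a median log2 difference of 1.62 over the 6. They kept the call in 5 of 9 and 8 of 9 other settings, and Gm26917 was also higher than in the other gates. The part of these models was not tested. Of the 18 tested Wnt and barrier regulators 11 were called higher and 1 lower. The forkhead factor Foxf2 was in 65.3% of endothelial-gate and 63.3% of mural cells (log2 0.37, adjusted p = 0.333). Foxq1, another forkhead factor, was in 80.0% against 64.8% (log2 0.86, adjusted p = 0.0150), and did not pass without plate 1 (0.72) or plate 2 (0.80). Axin2, the feedback inhibitor that is a general Wnt target, was lower than in mural cells (17.8% against 32.4% of cells, log2 -1.29, adjusted p = 0.00534), although it was higher than in the mean of the 3 other gates (2.03, adjusted p = 0.00605). Neither passed without plate 1 or without plate 2, where the difference from the mural gate was -1.12 and -0.63, or with DESeq2. Against the mural gate all 21 tested identity genes, 17 of 18 transporters and 6 of 7 tight junction genes were higher.

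Genes of caveolae and fenestrae were tested for 5 of 7 members, and all 5 were higher than in the other gates. Besides Plvap these were Cav2, Ehd2 and the cavin genes Ptrf and Prkcdbp, older symbols of Cavin1 and Cavin3. The 5 were also called higher than in the mural gate, with a median log2 difference of 1.19, against 3.97 from the other gates. In other settings Cav2 kept the call against the mural gate in 3 of 9 and Ehd2 in 4 of 9. For Prkcdbp this was 7 of 10, for Ptrf 8 of 10 and for Plvap 8 of 8. Cav1, the coat protein of caveolae, was in 26.2% of the cells and did not enter the test. Notch pathway members were called in 6 of 8 tests. Dll4, the Notch ligand of tip and arterial cells, was in 43.1% of the cells and rose by 5.05, Notch4, an endothelial receptor, was in 53.8% and rose by 3.92, and Notch1 was in 55.6% of endothelial-gate and 55.7% of mural cells. Heyl, a target of Notch, was in 4.00% of the cells against 81.0% of mural cells. It was lower than there by 4.30 on the log2 scale (edgeR adjusted p = 2.67e-11). In other settings its log2 difference ranged from -6.55 to -2.29, and the call was kept in 9 of 10. Hey2, another target, was lower than in mural cells by 3.39 (adjusted p = 2.64e-07).

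Tip cell genes fell into widely and rarely detected ones. Of the 19 listed 12 were tested and 10 were called higher than in the other gates, with a median log2 fold change of 3.06. Pdgfb, the ligand that recruits pericytes, was in 66.7% of the cells (log2 4.20), Adm, which encodes adrenomedullin, in 41.3% (5.42) and the matrix protein gene Nid2 in 52.4% (3.82). Flt4, the receptor VEGFR3, was in 45.8% and did not enter the test, with 117, 132 and 14.2 CPM on the 3 plates. Cxcr4, the receptor of the chemokine CXCL12, was in 49 cells, 21.8%, and its level of 78.2, 44.0 and 0 CPM on plates 1, 2 and 3 was 1.38 higher on the log2 scale than in the other gates (adjusted p = 5.89e-04). It did not pass without plate 1 (0.67, adjusted p = 0.687) or plate 2 (1.54, adjusted p = 0.0909). Esm1, a secreted proteoglycan of sprout tips, was counted in 11 cells, Angpt2, the antagonist of the TIE2 receptor, in 14 and the potassium channel subunit Kcne3 in 21. No Esm1 and no Kcne3 transcript was counted in any cell of the other gates. Mcam and Lamb1 were lower than in the mural gate (log2 -1.15 and -0.85, adjusted p = 0.00229 and 0.0331), in which 84.3% and 86.7% of the cells had them. Neither passed without plate 1 (-1.09 and -0.70) or plate 2 (-0.87 and -0.63).

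Arterial and venous genes were found in part of the cells. Of 21 arterial genes 12 were tested and 11 were called higher than in the other gates, and of 14 venous genes 9 were tested and 7 were called. Gja4, a connexin of arterial endothelium, was in 54 cells, 24.0%, at 193, 56.6 and 85.5 CPM on plates 1, 2 and 3, so plate 1 stood above the others. It was also in 46.7% of mural cells, and the 2 gates did not differ by the test (log2 0.18, adjusted p = 0.763). Sema3g, a semaphorin of arteries, was in 27.1% of the cells and in none of the mural cells. Efnb2, the arterial ephrin, was in 34.2%, against 49.6% of neural cells, and Cxcl12 was in 30 cells, 13.3%. Bmx, Alpl, Mgp and Fbln5, further genes of arterial or large vessels, were not counted in any of the 225 cells, and Gja5 was counted in 9.

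On the venous side Aplnr, the receptor of apelin, was in 56.0% of the cells and rose by 7.30, and Vwf, the von Willebrand factor gene, was in 34.2% and rose by 7.93. Ephb4, the venous ephrin receptor, was in 28% (3.45). Nr2f2, the transcription factor COUP-TFII that specifies veins, was in 32.4% of the cells but in 81.0% of mural cells, and it was lower than there by 1.82 on the log2 scale (adjusted p = 1.04e-06) and not different by the test from the mean of the other gates (0.47, adjusted p = 0.297). Ackr1, Selp and Vcam1, genes of mature or inflamed venules, were counted in 1, 2 and 3 cells.

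**Figure D3:**
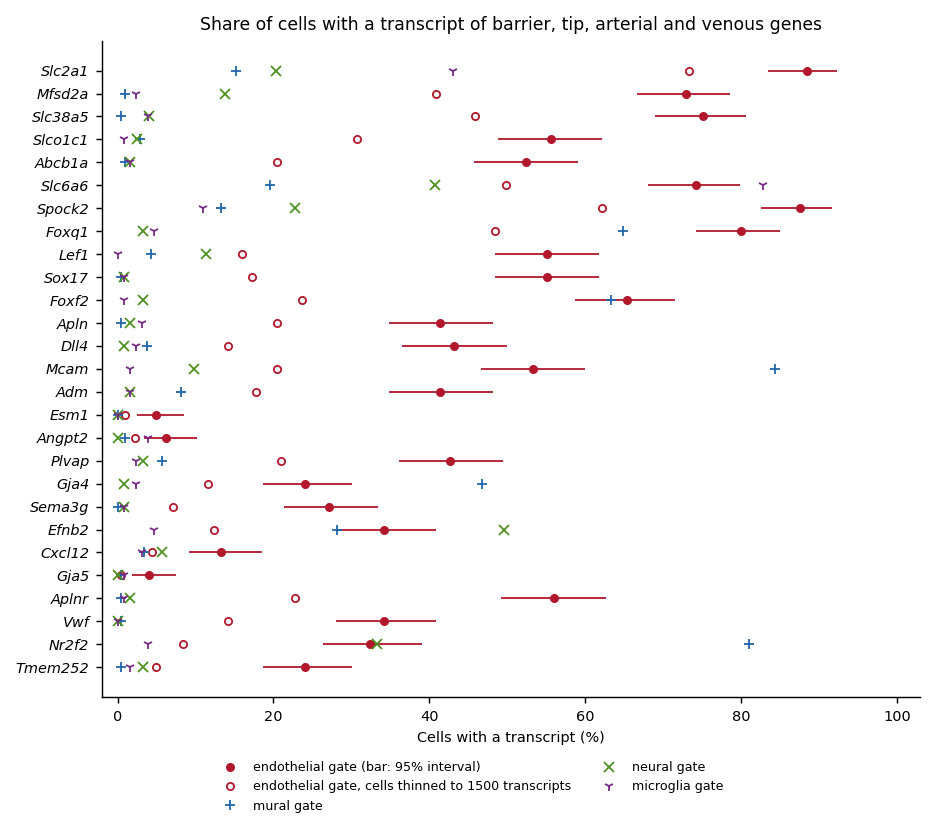
Share of cells with a transcript, in percent, for genes of each group, in endothelial-gate cells (filled circles, with 95% Clopper-Pearson intervals), in the same cells thinned to 1500 transcripts (open circles) and in the mural, neural and microglia gates. Slc2a1 reaches 88.4% and Slco1c1 55.6% of the cells, Apln and Plvap 41.3% and 42.7%, and Gja4 and Nr2f2 are more widely detected in mural (46.7% and 81.0%) than in endothelial-gate cells (24.0% and 32.4%).

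Among the genes that rose the most were 4 outside the lists. The 10 called genes with the largest fold change and no overlap between the sums were Gm28045, Cdh5, Cldn5, Robo4, Adamtsl2, Vwf, Mogat2, Slc38a3, AU021092 and Sox7. Gm28045, a predicted gene model, was in 37.8% of the cells and was not counted in the other gates, at least 63-fold higher than in mural cells. Mogat2, an acyltransferase of fat synthesis, was in 25.8% and likewise not counted elsewhere, and it did not pass with DESeq2 (log2 6.69, adjusted p = 0.244). Adamtsl2, a secreted matrix protein, was in 44.9% of the cells at 112, 121 and 57.0 CPM.

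On the lower side were genes that the other 3 gates all used. Arhgef10l, a guanine nucleotide exchange factor, was not counted in any endothelial-gate cell but was in 14.8% to 17.6% of the cells of each other gate. Irs2, an adaptor of insulin signalling, was in 2.22% of the cells against 27.1% of mural, 33.3% of neural and 52.3% of microglial cells (log2 -4.60, SE 0.48, adjusted p = 7.77e-12). Lrp1, a large endocytic receptor, was in 4.89% against 57.1%, 30.9% and 63.3% (-3.61), and Timp2, an inhibitor of metalloproteinases, in 3.11% against 31.0%, 35.8% and 70.3% (-3.95). Enzymes of glucose and lactate use were among them, with Hk2, hexokinase 2, at -3.97 and Ldhb, a lactate dehydrogenase subunit, at -3.23. These genes were named by the rule on fold change and were not a list.

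Markers of the other cell types were present in a part of the gate. In the 225 cells 77 had a transcript of at least 1 of 10 mural markers, 92 of at least 1 of 10 microglial and 76 of at least 1 of 10 neural markers, and the median summed level of each list was 0, with highest cells at 24400, 15300 and 8880 CPM. Acta2 was not counted. Within the 207 cells the mean mural level was 187 CPM against 494 in all 225. Of the 9 mural genes tested against the other gates, Rgs5 was higher and Notch3 was lower. Notch3 kept the call in 6 of 10 other settings, at log2 differences of -2.11 to -0.10. Rgs5, a regulator of G protein signalling abundant in pericytes, had a log2 difference of 1.96 (adjusted p = 3.41e-04) in all cells, of -0.0019 without plate 3 and of -1.03 with the 207 cells alone (adjusted p = 0.0326), while its level in the mural sums was 6396, 6972 and 6152 CPM. None of the 10 neural and none of the 10 microglial markers was called against the mean of the other gates, which holds those cells themselves. Against the mural gate 5 of the 10 microglial markers were called higher, C1qa, C1qc, Cx3cr1, P2ry12 and Tyrobp, with a median log2 difference of 1.89 over the list, and each of the 5 was in under 10% of the endothelial-gate cells. Without plate 1 none of the 5 passed, and C1qc and Cx3cr1 turned to -0.48 and -0.89, while with the 207 cells only Tyrobp passed of these 5. The neural markers Sox2, Fabp7 and Hes5 were called lower there. In other settings Sox2 and Fabp7 kept the call in 8 of 10 and Hes5 in 8 of 9. Without plate 1 Sox2 turned to 0.44, and the smallest difference of Fabp7 was -0.20. Markers of red cells, border macrophages, lymphatic endothelium and choroid plexus were in at most 12 cells, and those of megakaryocytes in 24. The fibroblast list was found in 141 cells, led by the forkhead gene Foxc1 (59.6% of the cells and 74.8% of mural cells). The blood progenitor list was found in 102, with Kit and Gata2 called higher than in the other gates (log2 1.04 and 2.37). Kit kept the call in 7 of 10 other settings and Gata2 in 6 of 7. Of 10 immediate early genes tested, which are induced quickly by stimuli, Fosb and Egr1 were lower (-1.07 and -1.73). Fosb kept the call in 8 of 10 other settings and Egr1 in 9 of 10.

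The cells were next divided by whether an Apln transcript was counted, to compare tip-like with other cells. There were 92 cells with and 115 without among the 207, namely 59 and 53 on plate 1, 31 and 57 on plate 2, and 2 and 5 on plate 3. The cells with Apln were deeper, at a median of 8820 against 5452 transcripts, so detection and depth go together, and sums per plate and class were compared with plate in the model. Of 4785 genes 27 were higher (0.564%) and 50 lower (1.04%), Apln itself left out. With the class taken after thinning each cell to 1500 transcripts, 4 were higher and 19 lower. Without plate 3 none passed in either direction by edgeR, with 254 higher and 290 lower at an unadjusted p under 0.05. DESeq2 also called none, with 40 and 66 at an unadjusted p under 0.05.

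Of 12 arterial genes tested, 3 were lower in cells with Apln. Gja4 stood at 51.7 against 438 CPM on plate 1, 42.1 against 72.5 on plate 2 and 0 against 89.1 on plate 3. It was lower on each plate, by the most on plate 1, and the log2 difference was -2.61 (SE 0.34, edgeR adjusted p = 7.82e-11) and -5.41 (adjusted p = 8.18e-12) with the class taken after thinning. It did not pass without plate 1 (-1.09, adjusted p = 0.9995), without plate 3 (adjusted p = 0.161) or with DESeq2 (-2.25, adjusted p = 0.567). Cxcl12 stood at 17.8 against 164, 7.02 against 36.2 and 0 against 44.6 CPM, a log2 difference of -3.16 (SE 0.52, adjusted p = 1.75e-06). Efnb2 was lower as well (-1.41, adjusted p = 0.00285), and the 9 others were not called. Cdkn1c, a cell cycle inhibitor, fell by 1.82 on the log2 scale and Apoe, the apolipoprotein E gene, by 1.60, and both passed with the thinned class. Without plate 3 none of Gja4, Cxcl12, Efnb2, Cdkn1c and Apoe passed (adjusted p = 0.147 to 0.230), at log2 differences of -2.62, -3.16, -1.40, -1.77 and -1.54 in turn. Of 16 transporters tested Slc6a6, the taurine carrier, was lower (-1.05) and so was Spock2 (-0.93).

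Of 11 tip cell genes tested, 2 were higher in cells with Apln. Mcam, an adhesion molecule, was at 289 against 155, 277 against 99.6 and 1102 against 44.6 CPM on plates 1, 2 and 3, a log2 difference of 1.13 (SE 0.27, adjusted p = 0.00330). Adm rose by 1.16 (adjusted p = 0.00659). With the thinned class Mcam passed (1.07, edgeR adjusted p = 0.0190) and Adm did not (0.92, adjusted p = 0.192). Neither passed without the cells that had at least 4 G2/M genes (1.17 and 1.35). The same held with any 1 plate left out (0.97 to 1.77 and 0.71 to 1.61). Dll4 (0.16, adjusted p = 0.961) and Cxcr4 (-0.14, adjusted p = 0.979) did not pass. Odc1, the entry enzyme of polyamine synthesis, rose by 1.52 and kept a difference of 1.14 with the thinned class (adjusted p = 0.00344).

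Cell division genes were also higher in cells with Apln as measured. Of 17 G2/M genes tested 7 were called higher, with a median log2 difference of 1.32. Mki67, a marker of dividing cells, was at 151 against 67.2 CPM on plate 1 and 474 against 48.3 on plate 2 (log2 1.94, adjusted p = 9.95e-07). With the class taken after thinning its difference was -0.17, that of Cenpe -0.24 and that of Racgap1 -0.05, and none of the 3 passed. The venous, Notch, tight junction and identity lists had no member called. Plvap did not differ between the classes (log2 0.25, adjusted p = 0.918).

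The cells were divided in the same way by Plvap, to compare cells that keep this gene of leaky vessels with the others. There were 95 with and 112 without a Plvap transcript, at 50 and 62 on plate 1, 44 and 44 on plate 2 and 1 and 6 on plate 3, and at median depths of 8803 and 5174 transcripts. Of 4846 genes 7 were higher (0.144%) and 38 lower (0.784%). Col15a1, a basement membrane collagen, was at 212 against 40.8 CPM on plate 1, 192 against 20.7 on plate 2 and 906 against 0 on plate 3, where the class with Plvap is 1 cell. It was higher on every plate, by 2.61 on the log2 scale (SE 0.36, adjusted p = 1.75e-09), and was the only gene called by DESeq2. H19, an imprinted long non-coding RNA of growing tissue, was at 746 against 139 and 307 against 132 on plates 1 and 2 (1.78, adjusted p = 1.80e-09). Both passed with the thinned class (1.56 and 1.44) and without plate 3 (2.48 and 1.82), and neither passed without plate 1 (3.42 and 0.88) or without plate 2 (2.63 and 2.10). Col18a1, another basement membrane collagen (0.92), Tgfbi, a matrix protein induced by TGF-beta (1.54), and Prkcdbp (1.16) passed as measured and not with the thinned class.

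Some transporters were lower in cells with Plvap, and a mural marker was called lower with plates that differed in direction. Slco1c1 was at 236 against 422, 155 against 219 and 0 against 390 CPM on the 3 plates, a log2 difference of -0.94 (SE 0.24, adjusted p = 0.0125), Slc38a5 differed by -0.73 (adjusted p = 0.0294) and Spock2 by -0.71 (adjusted p = 0.0482), which were 3 of the 16 transporters tested. The differences in Slco1c1 and Slc38a5 passed with the thinned class (-1.01 and -0.71), and that in Spock2 did not. After thinning, Slc38a5 was in 40% of the cells with Plvap and in 56.2% of those without, and Slco1c1 in 24.2% and 41.1%. Without plate 3 none of the 3 passed, at differences of -0.86, -0.67 and -0.55. Rgs5, the 1 mural marker that was tested, was called lower, with a log2 difference of -1.58 (edgeR adjusted p = 0.00106). It was lower on plate 1 (47.3 against 254 CPM) and higher on plate 2 (69.4 against 53.8). The call was kept in 5 of 9 other settings. Of 6 repeat-like gene models 2 were called lower as well. Their part in the result was not tested. Cxcr4 was lower by 1.77 (adjusted p = 0.00380), Maf, a transcription factor, by 1.86 and Ccdc141 by 1.60. Nnat, an imprinted gene, was lower in cells with Plvap by 1.78 and in cells with Apln by 1.47. Cldn5 differed by -0.42 and did not pass (adjusted p = 0.576), and no tight junction gene was called.

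**Figure D4:**
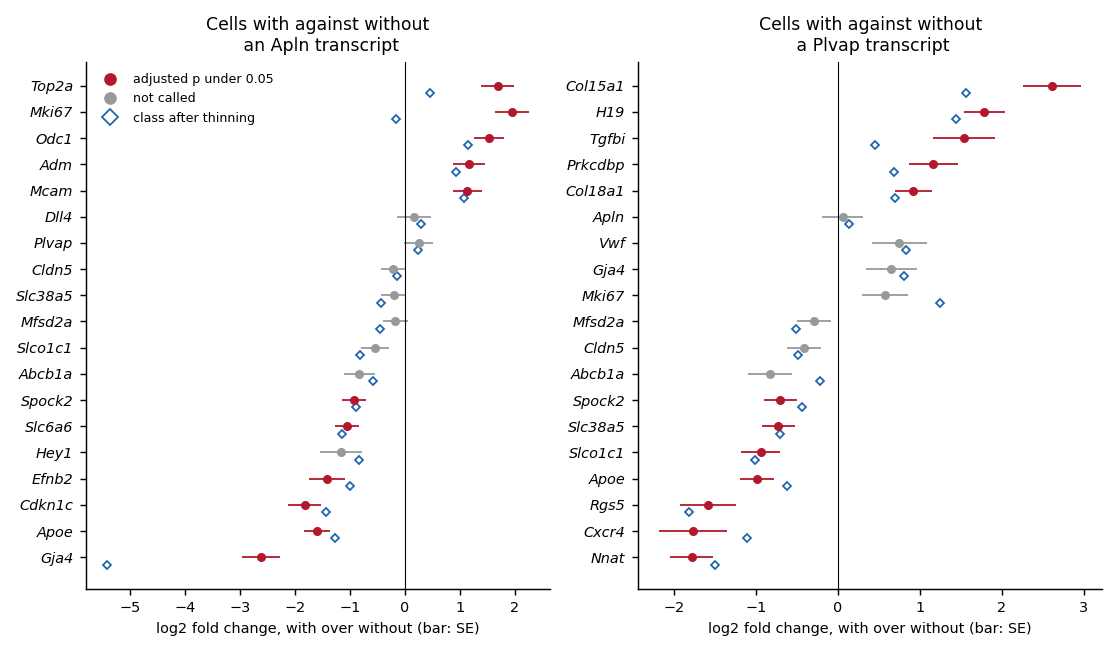
Log2 fold change between cells with and without an Apln transcript (left) and with and without a Plvap transcript (right) for named genes, from sums per plate and class with plate in the model; circles are red where the adjusted p was under 0.05 and grey where not, bars are 1 standard error, and open diamonds give the difference with the class taken after every cell was thinned to 1500 transcripts. Gja4, Cdkn1c and Apoe stay below 0 on the left with either class, while Mki67 moves from 1.94 to -0.17, and Col15a1 and H19 stay above 1 on the right.

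Repeat-like models moved with these classes. Of 6 such models tested 4 were lower in cells with Apln, 2 in cells with Plvap and 3 in cells with mitosis genes, and Gm26870 was at 3184 against 5218 CPM on plate 1 for Apln. When plate 3 and every cell over 20% repeat-like were left out, a setting chosen after seeing the data, 67 genes were higher and 58 lower in cells with Apln, Gja4 differed by -2.74 (adjusted p = 9.82e-17) and Mki67 by 2.19, and Col15a1 and H19 differed by 2.35 and 1.78 for Plvap. That setting leaves out 2 things at once, and without plate 3 alone 0 genes were called by edgeR in either direction for Apln (unadjusted p under 0.05 for 254 higher and 290 lower), so the part of the repeat-like models was not tested.

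Some pairs of arterial genes had a higher share of shared cells, and others did not. After thinning, 18% of the 50 cells with a Gja4 transcript had Cxcl12, against 0.637% of the 157 without it. For Efnb2 the shares were 30% against 7.64%, and for Hey1 20% against 4.46%. Sema3g was in 16% against 4.46%, with overlapping intervals. Conversely 43.3% of the 30 cells with Cxcl12 had Gja4, against 5.65% of the other 177. Dll4, also on the arterial list, was in 12% of the cells with Gja4 and 15.9% of those without, and in 6.67% against 16.4% by Cxcl12, and Sema3g was in 10% against 6.78% by Cxcl12, each with overlapping intervals. Apln was in 4.00% of the cells with Gja4 and in 28% of those without. The median depth of the cells with Gja4 was 7431 transcripts. Cells with Nr2f2 numbered 68, at a median depth of 9957 transcripts. After thinning they had Gja4 in 2.94% against 15.1%, with overlapping intervals, and Cxcr4 in 0% against 14.4%. As measured, Gja4 was in 11 of the 68 and 39 of the 139 others, and Cxcr4 in 10 and 38. Aplnr and Vwf had wide intervals in these cells, at 30.9% (20.2% to 43.3%) and 19.1% (10.6% to 30.5%), against 20.9% and 12.9% in the cells without Nr2f2. All of these shares cover counting error over cells and were not tested between plates.

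The 11 cells with an Esm1 transcript were looked at after their values were seen. After thinning 81.8% of them had Apln (48.2% to 97.7%), against 18.9% of the other 196 cells, 45.5% against 7.65% had Cxcr4, 45.5% against 10.2% had Col15a1 and 18.2% against 1.53% had Angpt2. None had Mki67 after thinning, against 14.8%, and 3 of the 11 had it as measured. Slc38a5 was in 27.3% (6.02% to 61.0%) against 50%. Their median depth was 6158 transcripts.

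After thinning to 1500 transcripts, 32.5% of the endothelial-gate cells of plate 1 and 32.6% of those of plate 2 had transcripts of at least 2 G2/M genes (mitosis genes). Among the 207 cells 98 had transcripts of at least 4 of 34 G2/M genes, 44 of at least 8 and 32 of at least 12, while 17 had none, and the highest cell had 34. Of the 44 cells with at least 8, 33 also had at least 6 genes of the 24 of the G1/S list. After thinning, 32.0% of all 225 endothelial-gate cells had at least 2 G2/M genes (26.0% to 38.5%), against 37.6% of mural (31.0% to 44.5%), 22% of neural (15% to 30.3%) and 33.6% of microglial cells (25.5% to 42.5%), and the endothelial interval overlapped each of the others. The endothelial share was 32.5% on plate 1, 32.6% on plate 2 and 23.1% of 13 cells on plate 3. On each plate it was above the neural and below the mural share. It was below the microglial share on plates 1 and 2 and above it on plate 3. Every gate had few cells on plate 3. The intervals pool cells over plates and cover counting error only, so their overlap does not show that the gates were alike. These shares were not tested between plates. In the gate comparison 1 of 33 G2/M genes, Hjurp, was called higher, against 16.4% of all genes tested. Of 23 G1/S genes 1, Pcna, the sliding clamp of DNA replication, was lower, against 6.96% of all. Hjurp kept the call in 7 of 10 other settings and Pcna in 6 of 10.

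**Figure D5:**
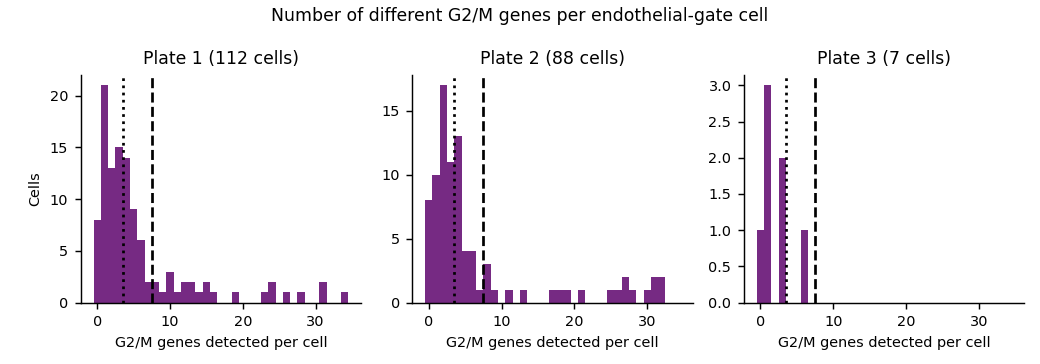
Number of cells (vertical axis) by the number of different G2/M genes with a transcript (horizontal axis) in the 207 endothelial-gate cells with at least 3 endothelial markers, by plate; the dotted line separates cells with at least 4 genes (98) and the dashed line those with at least 8 (44). Most cells lie under 4 genes on each plate, and a thin tail reaches 34 genes on plate 1 and 32 on plate 2.

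Cells with at least 4 mitosis genes differed from the others in genes called in both directions. There were 98 such cells (55, 42 and 1 on plates 1, 2 and 3) and 109 others, at median depths of 8897 and 5548 transcripts, and the genes of the 2 cell cycle lists were left out of the test. Of 4791 genes 31 were higher (0.647%) and 30 lower (0.626%). The cells were chosen by their G2/M transcripts, so higher levels of other cell division genes follow from that choice. The 3 higher genes with the largest fold change were Kif15, Tk1 and Knstrn. Tk1, the thymidine kinase gene, differed by 3.35 on the log2 scale (edgeR adjusted p = 0.00107). Knstrn, a gene of the spindle, differed by 3.17 (edgeR adjusted p = 0.00486). Values are given for Kif15, a mitotic kinesin, at 45 against 5.09 and 77.4 against 3.93 CPM on plates 1 and 2 (log2 3.5, adjusted p = 3.60e-04), 2810417H13Rik, at 231 against 28 and 351 against 39.3 (2.92, adjusted p = 7.59e-11), and Smc2, a subunit of condensin, at 239 against 30.6 and 238 against 55.1 (2.30, adjusted p = 7.37e-07). Fbxo5, an inhibitor of the anaphase-promoting complex, and Racgap1, which acts in cytokinesis, were higher by 2.78 and 2.21. The 10 called genes that fell the most were mostly predicted gene models, led by Gm26917, which was at 78.4 against 107 and 133 against 830 CPM on plates 1 and 2 (log2 -1.999, adjusted p = 1.77e-07). Of the 6 repeat-like gene models tested 3 were lower. Over left-out plates the counts ranged from 0 to 119 higher and from 0 to 101 lower. None of the identity, tight junction, transporter, tip, Notch, arterial or venous genes tested was called. Apln was 0.38 higher (adjusted p = 0.980) and Plvap 0.51 higher (adjusted p = 0.884), and neither passed. Apoe was lower by 0.99 (adjusted p = 0.0157), as it was in cells with Apln and in cells with Plvap.

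The 3 classes overlapped. As measured, 50 cells had both Apln and Plvap, 54 had Apln and at least 4 mitosis genes, 61 had Plvap and at least 4 mitosis genes, 34 met all 3 and 53 met none. After thinning, 46 cells had Apln, 47 had Plvap and 66 had at least 2 mitosis genes, the rule at that depth. There were 16 with Apln and Plvap, 16 with Apln and mitosis genes and 22 with Plvap and mitosis genes. All 3 were met by 5 cells and none by 97. A cell of the mitosis class holds transcripts of these genes and was not shown to be in mitosis. Each overlap was smaller after thinning, and none of the classes was contained in another.

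The transcripts of each cell were also summed over lists. After thinning to 1500 transcripts a cell held a median of 14 transcripts of the 19 barrier transporters (1 to 46), 4 of the tight junction list (0 to 14), 3 of the tip list (0 to 25) and 2 each of the arterial (0 to 12) and venous (0 to 9) lists. No cell lacked a transporter transcript, whereas 25 lacked all tip genes, 41 all arterial and 34 all venous genes. The mean level of the transporters over the 3 plates was 10470 ± 1167 CPM (SD, n = 3 plates) and that of the tip list 2053 ± 131. Across the thinned cells of plate 1 (112 cells) and plate 2 (88 cells) the transporter and tight junction sums had Spearman correlations of 0.42 and 0.35, the arterial and venous sums 0.06 and -0.07, the tip and arterial sums 0.22 and 0.29, and the tip and G2/M sums -0.06 and -0.05. Without thinning, on the CPM scale, these were 0.723 and 0.585, 0.014 and -0.036, 0.258 and 0.495, and -0.012 and 0.084. The caveola and tip sums had 0.30 on both plates. These values are descriptions, and the sums share the library and, where lists share a gene, that gene.

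Bulk RNA of sorted endothelial cells gave the same markers at high level. These values are normalised counts by the authors, compared on the log2(value + 1) scale with limma, and in bulk RNA fewer cells of a type and less RNA per cell cannot be told apart. Of 19765 genes 3892 were higher in the endothelial libraries than in the mean of the mural, neural and microglial ones (19.7%) and 4430 lower (22.4%). The neural libraries were made with another kit than the others, so kit and cell type cannot be told apart there. Cldn5 stood at 57540, 51370 and 64660 in the 3 endothelial libraries and at 146.5 or less elsewhere (log2 13.40, adjusted p = 2.15e-05). Plvap stood at 1834, 12090 and 6977, and Apln stood at 3037, 5739 and 4485, both above every other library (log2 8.40 and 9.75). All 23 identity genes, 17 of 19 transporters, 9 of 11 tight junction genes and 16 of 19 tip genes were called higher. Markers of other lists moved with these libraries. All 3 red cell genes tested were higher, with Hbb-bs at 5718, 4896 and 12990 against 39.5 to 6030 elsewhere, where the neural libraries overlap them (log2 3.62, adjusted p = 1.98e-05), and their part was not tested. Of the megakaryocyte list Itga2b was higher (1.90, adjusted p = 0.0222) and Gp1bb lower. Of the 10 mural markers Rgs5 was higher (1.53) and Pdgfrb, Notch3 and Cspg4 were lower, with a median of -2.12. Of 7 fibroblast genes tested Foxc1 was higher (5.45) and 5 were lower, with a median of -3.84, and of 2 choroid plexus genes Clic6 was higher (2.87). Esm1, counted in 11 single cells, was at 62.0, 292 and 276 in bulk, against 28.2 or less, and Gja5, counted in 9 cells, at 345.5, 690 and 836, against 243 or less. Slco1a4, not counted in single cells, was at 172, 28.4 and 0, and its difference did not pass (log2 2.88, adjusted p = 0.0959).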

How the data were processed

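Single E14.5 brain cells had been sorted by the authors into wells and sequenced with the mCEL-Seq2 protocol. The deposited values are expected counts of transcripts, k distinct molecular identifiers converted by n = K ln(K/(K - k)) with K = 4096, with a largest deviation of 4.1e-12 from that form. The submitters' processing notes name BWA 0.6.2-r126, STAR, featureCounts, DESeq2 and the build mm10. The well table gave each well's gate. Bulk values were deposited by the authors as normalised counts, a signal per gene, and correspond to whole reads within 0.01 for 100% of low values (17638358 to 98414914 reads per library). Which tool made which file is not given in the sources used here. Spike-in transcripts were left out of all sums.

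Cells with more than 1500 transcripts were kept. Expected counts were summed per plate and gate (12 sums), or per plate and class (6 sums), rounded, filtered with filterByExpr, scaled by TMM and tested with edgeR 4.0.16 (quasi-likelihood, Benjamini-Hochberg adjusted p under 0.05), the split fits with plate as a term. Bulk genes with a mean of at least 10 were tested with limma 3.58.1 on log2(value + 1). DESeq2 1.42.0, other filters, depths and left-out plates were alternatives. Scripts were tested on simulated data. Intervals cover counting error only. No doublet caller was run. 1 list member enters the counts and is not reported here by name. Members, lists and classes were chosen with earlier results of these data known. Values are given for the 6 named markers, for list members in at least 10% of the cells or called between gates, and for the 10 called genes with the largest fold change per direction, other names having been chosen after their values were seen. Gates of a plate share that plate by their labels, and the correlations of their deviations had a median of 0.06 (-0.04 to 0.13). Brain numbers of bulk libraries gave -0.05 to 0.08. Of 53465 bulk gene identifiers 53274 had a symbol in the name table, coordinates are from the annotation of GRCm38, and promoters from RefSeq.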

Additional observations from a re-analysis of the deposited data

Results flagged for a closer look

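Library 10 stood apart from the other libraries with endothelial-gate cells. Its 4 cells gave a median of 52.7% of their transcripts to repeat-like gene models, against 4.84% to 9.57% in the 5 other libraries, and its gap to the nearest library, taken over the whole range, passed Dixon's 95% value for 6 libraries. By chance this happens in about 1 in 20 groups. Of these 4 cells 2 had at least 3 of the 6 endothelial markers, and none had a Plvap transcript. Left out with the rest of plate 3, the counts for the gate comparison were 1979 genes higher and 877 lower. What set this library apart was not tested.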

How the results depend on the processing

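Plate 3, with 13 cells, and the number of sums limit these results. Against the other gates the counts of higher and lower genes were 882 and 188 with DESeq2 and ranged from 647 to 1979 and from 64 to 877 when 1 plate was left out. Against the mural gate they were 438 and 356 with DESeq2, with ranges of 308 to 1372 and 255 to 1189. The plate as a replicate block gave 1632 and 808 against the other gates and 1175 and 938 against the mural gate, with 1517, 643, 1065 and 842 called in both fits, and brain number as a block gave 3699 and 4315 in bulk. The difference of Rgs5 from the other gates turned to -0.0019 without plate 3, ranged up to 2.75 with another plate left out and was -1.03 with the 207 cells. Against the mural gate and without plate 1, C1qc turned to -0.48, Cx3cr1 to -0.89 and Sox2 to 0.44, against 2.56, 2.73 and -2.25 at the other end of their ranges over left-out plates. In bulk, edgeR on recovered reads, added after seeing the data, called 2483 genes lower.

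For Apln the counts of higher and lower genes were 13 and 27 with no block and 4 and 25 with sums per library. They were 0 and 0 with DESeq2 (unadjusted p under 0.05 for 40 and 66) and 4 and 19 with the thinned class. Without the cells that had at least 4 mitosis genes they were 2 and 17. With all cells of the gate 10 were higher. Without plate 3 and cells over 20% repeat-like, added after seeing the data, 67 were higher. Leaving out 1 plate gave 0 to 3 higher and 0 to 9 lower. With the thinned class Cenpe turned to -0.24, Mki67 to -0.17 and Racgap1 to -0.050, and Gm26917 to 0.52 without plate 3 and repeat-rich cells. For Plvap the counts were 4 and 8 with no block and 1 and 0 with DESeq2 (unadjusted p under 0.05 for 21 and 75). They were 3 and 16 with all cells and 11 and 72 with at least 2 Plvap transcripts. Without the cells that had at least 4 mitosis genes they were 3 and 3, and without plate 3 and repeat-rich cells 4 and 20. With no filter 4 were higher, and the ranges over left-out plates were 0 to 2 and 0 to 13. For mitosis genes the counts were 14 and 7 with DESeq2 and 223 and 98 with at least 8 genes. They were 12 higher with sums per library, 84 with no filter, 68 with the thinned class and 79 without plate 3 and repeat-rich cells, and 17 lower with no block, and the ranges over left-out plates were 0 to 119 and 0 to 101. After thinning the shares of cells were 72.0% for Cldn5, 34.2% for Cdh5, 82.7% for Kdr, 72.4% for Cd93, 20.9% for Plvap and 20.4% for Apln, and over left-out plates the Apln share ranged from 31.4% to 46.6%. Causes of these shifts were not tested. Among the called genes rerun under these settings, no others changed direction, and 139 of 227 Plvap, 166 of 312 Apln and 62 of 210 mitosis values kept their direction without passing the threshold, as did 30 of 1095 against the other gates and 132 of 1220 against the mural gate.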
